A study of Homo sapiens with 9 samples.

Results

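The 46 genes described here encode molecular chaperones of the cytosol and mitochondria, their co-chaperones and the heat shock factors HSF1 and HSF2. They were chosen by name, with earlier results of these data known. Their symbols were matched to the gene identifiers of the count tables. All 46 were found among the 52165 genes listed in both tables (57820 for Kyse150 and 60683 for TE11). Polyadenylated RNA had been sequenced from Kyse150 and TE11, cell lines established from human esophageal squamous cell carcinoma and grown in RPMI 1640 with serum. The cells expressed an shRNA, either the control shNC or one that targets the histone demethylase KDM2A. The 4 groups were 2 Kyse150 control libraries, 2 Kyse150 KDM2A knockdown libraries, 3 TE11 control libraries and 2 libraries labelled TE11 KDM2A knockdown. The labels name a single KDM2A shRNA, so effects of less KDM2A and other effects of that shRNA cannot be told apart. The replicates are described as independent, but what was repeated is not named. The spread behind every p-value is therefore that between libraries, part of which may be technical.

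Chaperones bind unfolded or partly folded proteins and help them fold, assemble or be handed on for degradation. HSP70 works in cycles of ATP binding and hydrolysis that J-domain proteins start and exchange factors such as HSP110 and BAG proteins reset. HSP90 takes over clients such as kinases and steroid receptors with the help of its own co-chaperones, the ring-shaped chaperonin CCT folds actin and tubulin, and mitochondria hold their own HSP70, HSP90 and chaperonin. Some of these genes are transcribed at a high level at all times, whereas others are strongly induced when heat shock factor HSF1 binds heat shock elements, repeats of the letters GAA and TTC.

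These elements can be read in the promoters. The 250 bases before each start were searched in the RefSeq promoter table (build GRCh38.p14), which held 39 of the 46 genes with 54 starts. The letters of a 3-unit element, that is GAA, TTC and GAA (or TTC, GAA and TTC) in a row with any 2 bases between neighbours, cover both strands and may overlap one another. They stood in 6 of the 39 genes (15.4%) and in 152 of all 27305 genes of the table (0.557%). A gene was counted if any of its listed starts had a match. For HSP90AB1 this was the start at 44247943, not those at 44246194 and 44247101. HSP90AA1 and HSPD1 each also had a start without a match. The stretches shown for HSPA8, HSP90AA1, CHORDC1 and HSPD1 lie wholly within annotated exons. The 6 are shown because they include 3 of the most abundant chaperone transcripts measured here, with capitals marking the matched letters (for HSPA8, the nearer to the start of its 2 matches, the other not being shown) and each sequence written 5′ to 3′ on the strand of the gene.
HSPA8, chr11:123062171-123062199, reverse strand, 42 bases before the start: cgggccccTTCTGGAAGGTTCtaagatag
HSP90AA1, chr14:102087112-102087140, reverse strand, 75 bases before the start: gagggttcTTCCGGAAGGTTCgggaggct
HSP90AB1, chr6:44247763-44247858, forward strand, 99 bases before the start: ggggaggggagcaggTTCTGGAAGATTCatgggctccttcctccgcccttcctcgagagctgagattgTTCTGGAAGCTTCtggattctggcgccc
CHORDC1, chr11:90223084-90223112, reverse strand, 37 bases before the start: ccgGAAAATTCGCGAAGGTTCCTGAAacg
DNAJB6, chr7:157336858-157336900, forward strand, 118 bases before the start: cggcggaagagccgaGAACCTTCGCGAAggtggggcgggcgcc
HSPD1, chr2:197500062-197500090, reverse strand, 227 bases before the start: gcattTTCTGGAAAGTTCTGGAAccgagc
The shorter form, GAANNTTC or TTCNNGAA, stood in 15 of the 39 genes (38.5%) and in 14.0% of all genes of the table, and these 15 included HSPA1A, HSPA1B, DNAJA1, DNAJB1, DNAJB4, HSPB1 and HSPB8. A match describes letters only and shows no binding.

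KDM2A was read first because it checks the labels. Its level in Kyse150 was 168.9 and 171.5 CPM (counts per gene after scaling each library to a common size) in the controls and 104.6 and 102.0 CPM in the knockdowns (log2 fold change -0.71, SE 0.07; edgeR adjusted p = 3.87e-09). The TE11 values were 124.4, 120.9 and 124.0 CPM in the controls and 132 and 146 CPM in the libraries labelled knockdown, with a change of 0.16 on that scale (SE 0.07; edgeR adjusted p = 0.0335). The TE11 label was therefore not borne out by a lower KDM2A level, and the call of a rise was lost without labelled knockdown replicate 2 (edgeR adjusted p = 0.398) and without control replicate 2 (0.0772) or 3 (0.0969). It was also lost with DESeq2 (adjusted p = 0.0739), and in edgeR with no filter (0.0546), the replicate block (0.0838) or upper-quartile scaling (0.185). Every TE11 direction below is a direction between labelled libraries, and without these 2 libraries only the Kyse150 comparison remains. Those libraries also differed from the TE11 controls in markers of epithelial type. The summed level of 10 squamous markers was 5087 to 5538 CPM in the TE11 controls and 1989.5 to 2037 in the labelled knockdowns. It was 1976 to 2034 in the Kyse150 controls and 1772 to 1796 in the Kyse150 knockdowns. In Kyse150 this sum was carried by KRT5, at 1205 CPM in the controls and 1017 CPM in the knockdowns, and of 9 squamous markers tested there 3 fell and 4 rose, with KRT14 up 2.95-fold and KRT15 up 1.74-fold. In TE11 9 of the 10 fell and 1 rose. KRT5 fell there from 2781 to 1055 CPM and KRT15 from 850 to 27.5 CPM, where the Kyse150 controls had 27.4. SOX2 had 239, 232 and 268 counts in the TE11 controls and 0 or 1 in each library of the other groups. The 7 columnar markers, led by KRT8 and KRT18, summed to 2827 to 3174 CPM in the TE11 controls and 6451 to 6639 in the labelled knockdowns. In Kyse150 they summed to 6330 to 6418 CPM in the controls and 7077 to 7622 in the knockdowns. CDX2 and TFF3 were at 0 in all groups. Markers of leukocytes summed to at most 2.85 CPM in any library, with PTPRC at 0 in every group. Fibroblast markers summed to at most 30.7 CPM, with DCN and FAP at 0 outside the TE11 controls. Endothelial markers, without PECAM1, summed to at most 9.33 CPM. Both sums were highest in the TE11 controls. The part of these differences in the chaperone results was not tested. Gene counts per library came to between 6052883 and 7167055 in Kyse150 and between 8457767 and 12073098 in TE11.

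In Kyse150 most of the 46 genes fell with the KDM2A shRNA, whereas the 2 heat-inducible HSP70 genes HSPA1A and HSPA1B rose. In TE11 most rose in the libraries labelled knockdown, and those same 2 genes fell. Of the 46, 28 fell and 8 rose in Kyse150 (edgeR, adjusted p under 0.05), against 23.3% of all 14060 tested genes that fell, 24.8% that rose and 48.2% called in either direction. In TE11, 26 rose and 12 fell, against 35.9%, 42.2% and 78.1% of 16453 tested genes. The median log2 fold change of the 46 was -0.34 in Kyse150, where that of all tested genes was 0.0023, and 0.38 in TE11, where it was -0.09. All 46 passed the filter on low counts in both lines. The control and knockdown libraries did not overlap for 41 of the 46 in Kyse150, where this held for 73.7% of genes, and for 39 in TE11, where it held for 84.7%. RNA was measured in bulk, so fewer cells with a transcript and less of it per cell cannot be told apart.

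**Figure D1:**
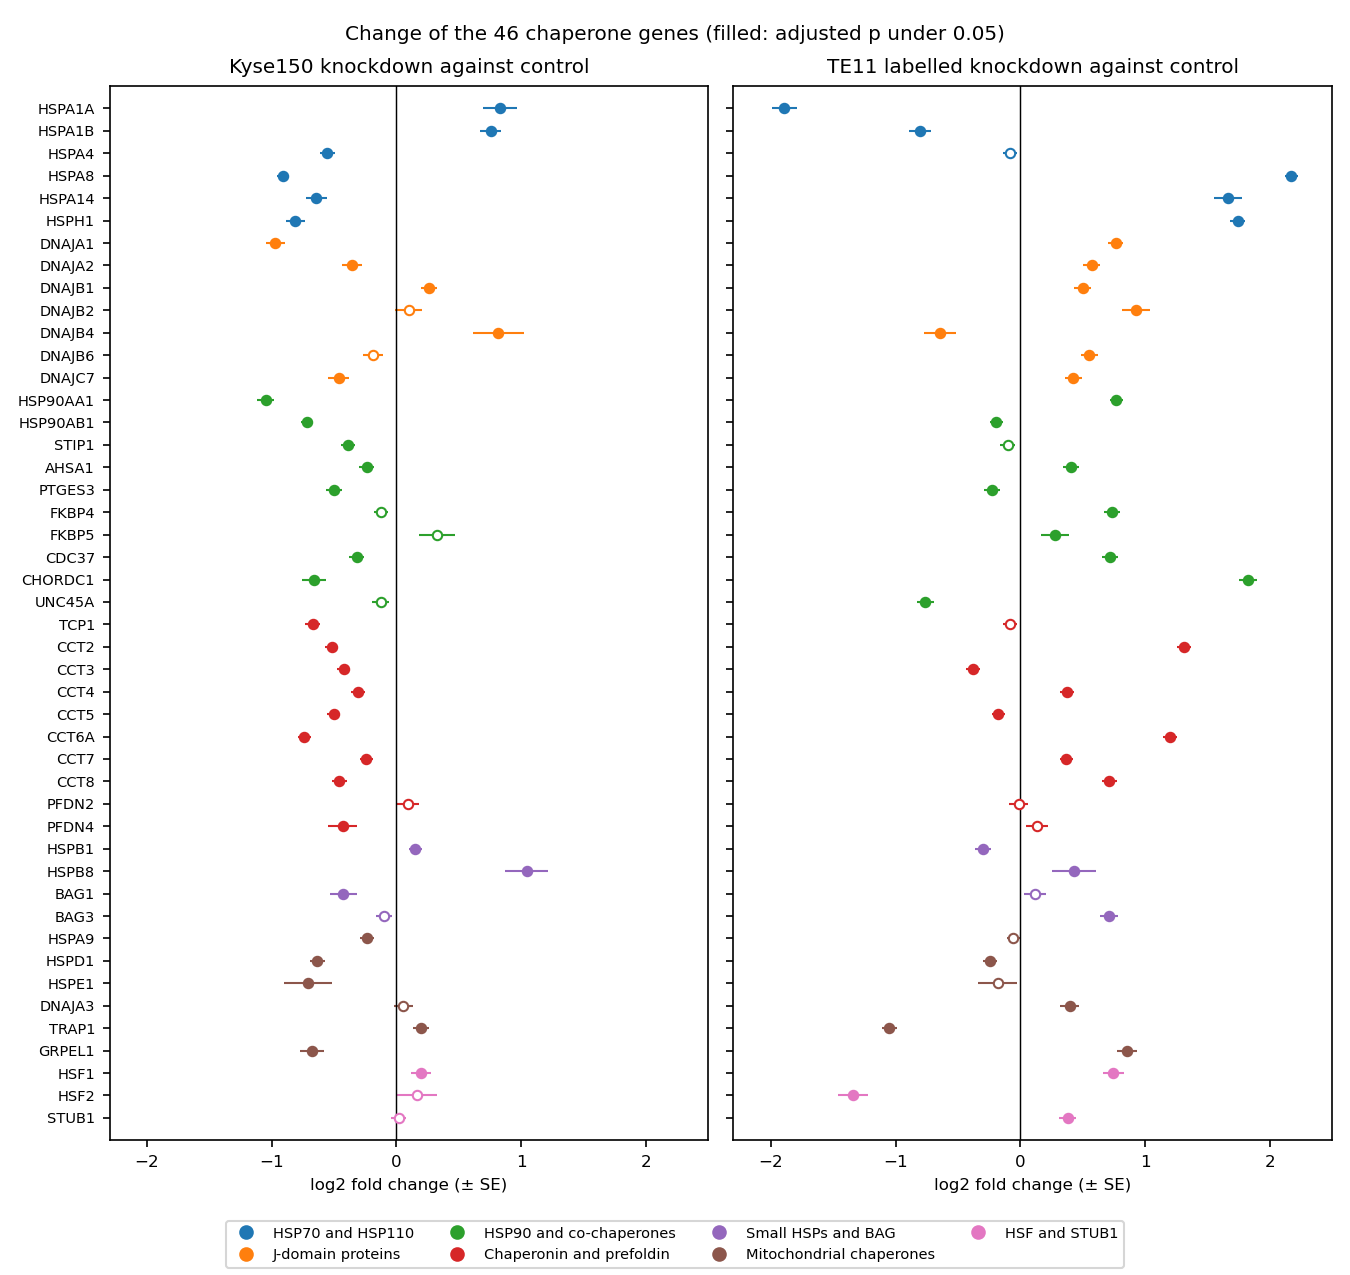
Log2 fold change of each of the 46 genes (points; horizontal bars show 1 SE) in Kyse150 (left; 2 knockdown against 2 control libraries) and TE11 (right; 2 labelled knockdown against 3 control libraries), coloured by family and filled where the edgeR adjusted p was under 0.05. Most filled points lie left of 0 in Kyse150 (28 lower, 8 higher) and right of 0 in TE11 (26 higher, 12 lower), while HSPA1A and HSPA1B lie on the other side in each.

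Among the 6 members of the HSP70 and HSP110 families, 4 fell and 2 rose in Kyse150 (23.3% and 24.8% of all tested genes). In TE11 3 rose and 2 fell (35.9% and 42.2%). HSPA8, the constitutive cytosolic HSP70 (HSC70), stood at 2550.3 and 2712 CPM in the Kyse150 controls, 1381 and 1397 in the knockdowns, 1015, 974 and 993 in the TE11 controls and 4439.9 and 4636 in the labelled TE11 knockdowns. The libraries of each group lay close together and no groups overlapped. Its log2 fold change was -0.91 in Kyse150 (SE 0.05; edgeR adjusted p = 1.01e-14), a level 0.531 times that of the controls, and 2.17 in TE11 (SE 0.05; edgeR adjusted p = 3.59e-35), a 4.52-fold rise. HSPH1, the HSP110 that exchanges nucleotide on HSP70, was measured at 262 and 220.0 CPM in the Kyse150 controls against 129 and 144 in the knockdowns, and at 140.3, 163 and 150.2 CPM in the TE11 controls against 503 and 519 in the labelled knockdowns. It moved with HSPA8, to 0.57 times the control level in Kyse150 and 3.35 times in TE11. HSPA14, an HSP70-like protein of the ribosome-associated complex, fell to 0.64 times the control level in Kyse150 and rose 3.17-fold in TE11. HSPA4, another HSP110-type exchange factor, fell to 0.681 times in Kyse150, and its TE11 level of 0.944 times the controls did not pass the test (edgeR adjusted p = 0.187), except under upper-quartile scaling (0.0242) or without control replicate 1 (0.00724).

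HSPA1A and HSPA1B, which encode the stress-inducible HSP70, went the other way in both lines. HSPA1A stood at 21.0 and 23.5 CPM in the Kyse150 controls, 43.8 and 34.6 in the knockdowns, 74.0, 68.1 and 70.9 in the TE11 controls and 19.4 and 19.2 in the labelled TE11 knockdowns. Its log2 fold change was 0.83 in Kyse150 (SE 0.14; edgeR adjusted p = 1.34e-05) and -1.89 in TE11 (SE 0.10; edgeR adjusted p = 1.29e-21). The groups did not overlap within either line, and the TE11 controls were the highest of all 9 libraries. HSPA1B was at 63.0 and 60.8 CPM in the Kyse150 controls against 108 and 99.8 in the knockdowns, with 88.7, 79.1 and 80.5 CPM in the TE11 controls and 47.4 and 48.4 in the labelled knockdowns. That was a 1.69-fold rise in Kyse150 (log2 fold change 0.75, SE 0.08; edgeR adjusted p = 3.3e-08) and a fall to 0.573 times in TE11 (-0.80, SE 0.08; edgeR adjusted p = 1.35e-11). These 2 genes lie on chromosome 6 at 31815464 to 31817946 and 31827735 to 31830255 (GRCh38, GENCODE release 29) and are near-identical copies, so the split of reads between them is uncertain. HSPA1A made up 25.0% and 27.8% of the pair's counts in the Kyse150 controls, 28.9% and 25.7% in the knockdowns, 45.5%, 46.3% and 46.8% in the TE11 controls and 29.1% and 28.4% in the labelled TE11 knockdowns. The labelled TE11 knockdowns thus lay near the Kyse150 libraries, and the TE11 controls stood apart at 45.5% or more.

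**Figure D2:**
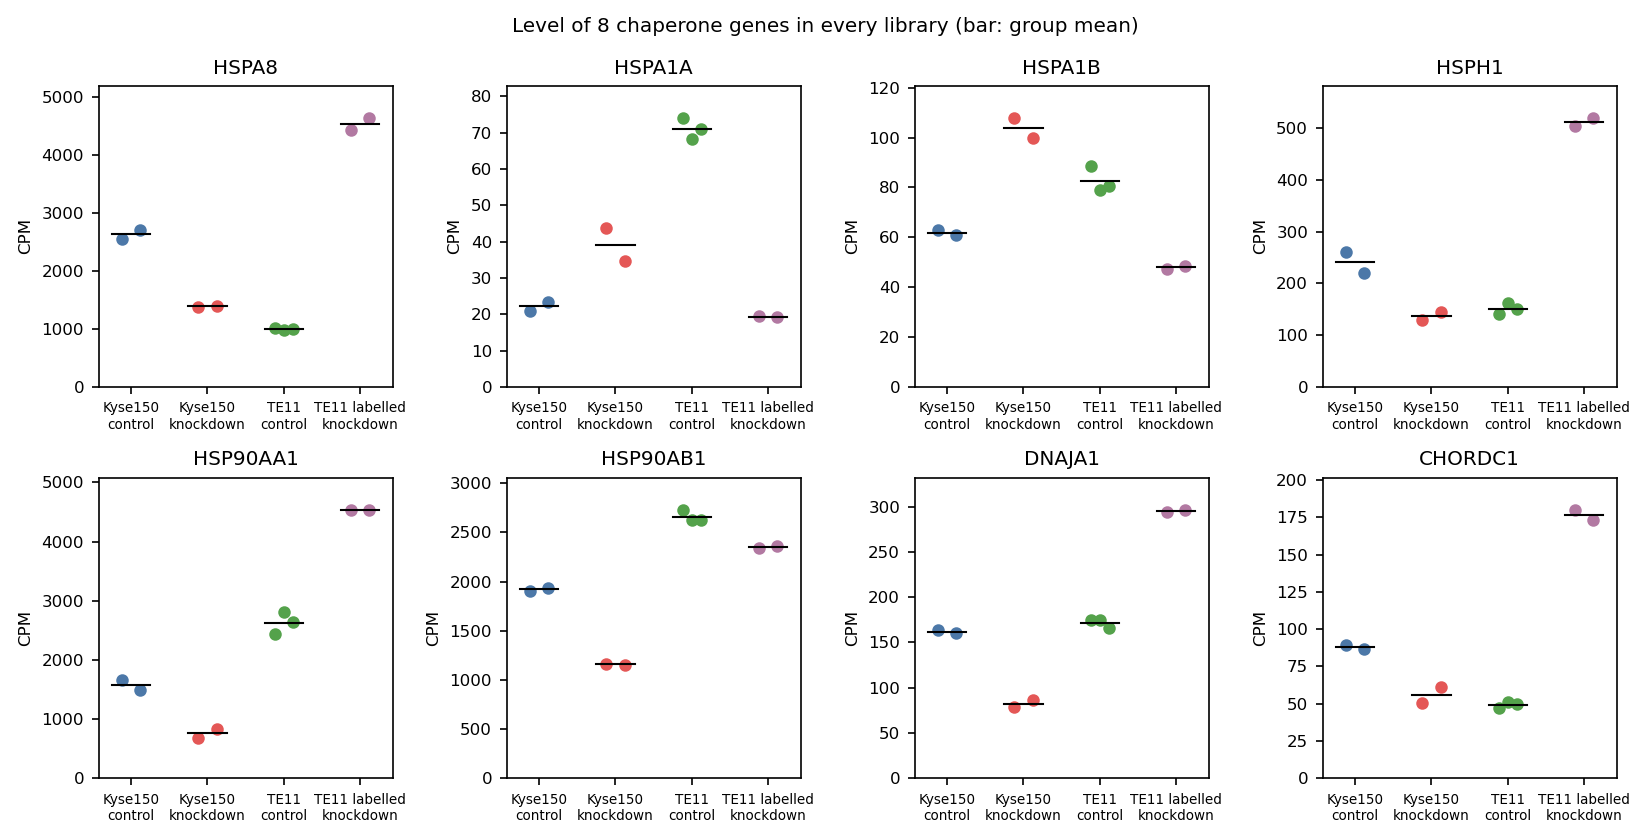
Level in CPM of 8 chaperone genes (linear axes from 0) in every library of the 4 groups; points are libraries and bars are group means. HSPA8, HSPH1, HSP90AA1, DNAJA1 and CHORDC1 are lower in the Kyse150 knockdowns than in the Kyse150 controls and highest in the labelled TE11 knockdowns, where HSPA1A and HSPA1B are lowest.

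The ratio of HSPA8 counts to those of HSPA1A and HSPA1B can be read within each library, where scaling cancels. Its size is no ratio of transcripts. Reads that fit both near-identical copies may be left uncounted. The part of each column aligned to more than 1 place differed between groups. It was 6.58% to 6.78% in Kyse150, 2.94% to 3.32% in the TE11 controls and 3.84% and 4.07% in the labelled TE11 knockdowns. Exon lengths also differ, at 4.85 kb for HSPA8 and 2.48 and 2.52 kb for the pair. HSPA8 counts were 30.4 and 32.2 times those of HSPA1A and HSPA1B together in the Kyse150 controls and 9.11 and 10.4 times in the knockdowns. They were 6.24, 6.62 and 6.56 times in the TE11 controls and 66.4 and 68.6 times in the labelled knockdowns. The ratio was therefore lower in both Kyse150 knockdowns than in both controls and higher in both labelled TE11 knockdowns than in all 3 controls.

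J-domain proteins deliver clients to HSP70 and trigger its ATP hydrolysis. Of the 7 listed, 3 fell and 2 rose in Kyse150 (23.3% and 24.8% of all tested genes), and 6 rose and 1 fell in TE11 (35.9% and 42.2%). DNAJA1, a partner of HSPA8 in folding and import of proteins into mitochondria, was at 163 and 160.3 CPM in the Kyse150 controls against 78.4 and 85.9 in the knockdowns. The TE11 controls had 175, 175 and 165 CPM and the labelled knockdowns 294 and 296. The groups of each line were apart, with log2 fold changes of -0.97 in Kyse150 (SE 0.08; edgeR adjusted p = 3.3e-11) and 0.76 in TE11 (SE 0.06; edgeR adjusted p = 4.41e-15). DNAJA2, a close relative of DNAJA1, and DNAJC7, a J-domain protein with TPR repeats that also binds HSP90, likewise fell in Kyse150, to 0.781 and 0.726 times, and rose in TE11, 1.49-fold and 1.34-fold. DNAJB4 stood at 7.78 and 7.15 CPM in the Kyse150 controls, 12.8 and 13.4 in the knockdowns, 22.8, 29.8 and 24.5 in the TE11 controls and 16.4 and 16.9 in the labelled knockdowns. It was the J-domain member that moved as HSPA1A did, rising 1.76-fold in Kyse150 (SE 0.20 on the log2 scale; edgeR adjusted p = 0.00157) and falling to 0.64 times in TE11 (SE 0.13; edgeR adjusted p = 2.71e-05).
DNAJB1, the main J-domain partner of inducible HSP70, rose in both lines, 1.2-fold in Kyse150 (edgeR adjusted p = 0.00108) and 1.41-fold in TE11 (edgeR adjusted p = 3.54e-09). DNAJB2, which passes ubiquitinated clients to the proteasome, was at 42.0 and 40.9 CPM in the Kyse150 controls, 46.8 and 41.4 in the knockdowns, 20.7, 22.9 and 18.6 in the TE11 controls and 40.1 and 39.8 in the labelled knockdowns. Its groups overlapped in Kyse150, where it did not pass the test (edgeR adjusted p = 0.469), and were apart in TE11, where it rose 1.9-fold (edgeR adjusted p = 3.98e-10). DNAJB6, a suppressor of protein aggregation, rose 1.47-fold in TE11. Its Kyse150 level of 0.877 times the controls missed the threshold (edgeR adjusted p = 0.0545) with overlapping groups, and passed it under 6 alternatives, among them without control replicate 1 (0.00153).

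For HSP90 and its co-chaperones, 7 of 10 fell and none rose in Kyse150 (23.3% and 24.8% of all tested genes). In TE11 6 rose and 3 fell (35.9% and 42.2%). HSP90AA1, the stress-inducible cytosolic HSP90, stood at 1659 and 1489 CPM in the Kyse150 controls, 688 and 828 in the knockdowns, 2446, 2803 and 2648 in the TE11 controls and 4539 and 4537 in the labelled knockdowns. With no overlap of groups, its log2 fold change was -1.05 in Kyse150 (SE 0.07; edgeR adjusted p = 4.94e-10) and 0.77 in TE11 (SE 0.05; edgeR adjusted p = 9.03e-18). HSP90AB1, the constitutive cytosolic HSP90, was at 1905 and 1938 CPM in the Kyse150 controls against 1166 and 1156 in the knockdowns. In TE11 it was at 2729.7, 2623 and 2626 CPM in the controls and 2343 and 2365 in the labelled knockdowns. HSP90AB1 fell in both lines, by 0.72 on the log2 scale in Kyse150 (SE 0.05; edgeR adjusted p = 1.06e-12) and by 0.19 in TE11 (SE 0.05; edgeR adjusted p = 0.000743). Per HSP90AB1 count, HSP90AA1 had 0.871 and 0.769 counts in the Kyse150 controls, 0.590 and 0.716 in the knockdowns, 0.896, 1.07 and 1.01 in the TE11 controls and 1.94 and 1.92 in the labelled knockdowns. The 2 genes were thus about level in the TE11 controls, and HSP90AA1 was the higher in counts in both labelled knockdowns.

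**Figure D3:**
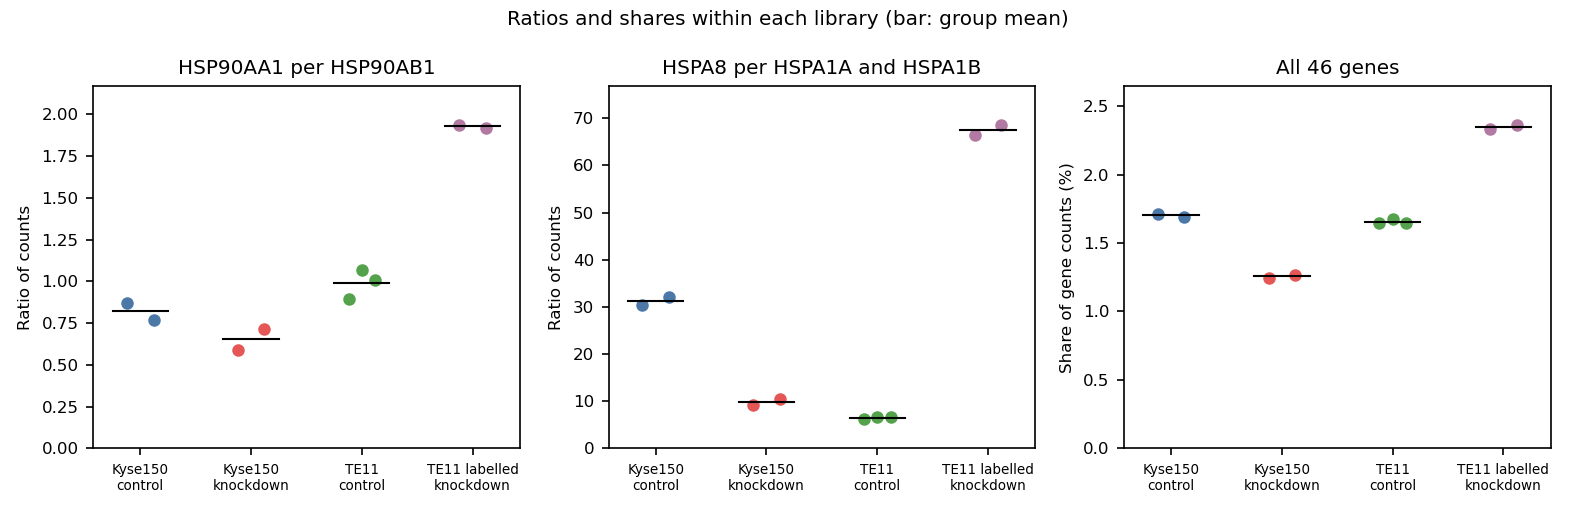
Ratio of HSP90AA1 to HSP90AB1 counts (left), ratio of HSPA8 counts to HSPA1A and HSPA1B counts (middle), and share of all gene counts held by the 46 genes in percent (right), with 1 point per library, bars at group means and linear axes from 0. All 3 quantities are lower in the Kyse150 knockdowns than in the Kyse150 controls and highest in the labelled TE11 knockdowns.

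CHORDC1, a zinc-binding HSP90 co-chaperone, was at 89.5 and 86.7 CPM in the Kyse150 controls against 50.2 and 61.0 in the knockdowns. The TE11 controls had 47.2, 51.0 and 49.8 CPM and the labelled knockdowns 180.1 and 173. The log2 fold change was -0.66 in Kyse150 (SE 0.09; edgeR adjusted p = 1.94e-06) and 1.82 in TE11 (SE 0.07; edgeR adjusted p = 3.98e-26), with no overlap of groups. The kinase-specific co-chaperone CDC37 and the ATPase activator AHSA1 fell in Kyse150, to 0.802 and 0.847 times the controls, and rose in TE11, 1.65-fold and 1.33-fold. PTGES3 (p23), which stabilizes the closed state of HSP90, fell in both lines, to 0.706 times in Kyse150 and 0.856 times in TE11, where the call was lost without labelled knockdown replicate 1 (edgeR adjusted p = 0.0655). STIP1 (HOP), the adaptor between HSP70 and HSP90, fell to 0.765 times in Kyse150, and its TE11 groups overlapped (0.933 times; edgeR adjusted p = 0.136). STIP1 passed there under upper-quartile scaling (0.0186) or without control replicate 2 (0.0157).
The immunophilins of steroid receptor complexes, FKBP4 and FKBP5, did not pass the test in Kyse150 (0.916 and 1.25 times the controls; edgeR adjusted p = 0.0687 and 0.0641). FKBP4 rose 1.67-fold in TE11, and FKBP5 rose 1.21-fold there (edgeR adjusted p = 0.0234), a call lost with DESeq2 (0.0766), with the replicate block (edgeR, 0.0608), under upper-quartile scaling (edgeR, 0.0750) and without any library but control replicate 1 (edgeR, 0.0504 to 0.0959). In Kyse150 FKBP5 passed without knockdown replicate 1 (0.0401) or control replicate 1 (0.0213), FKBP4 without knockdown replicate 1 (0.0214). UNC45A, a myosin chaperone that works with HSP90, stood at 160.4 and 162 CPM in the Kyse150 controls, 139 and 155 in the knockdowns, 235, 211 and 229 in the TE11 controls and 136 and 133 in the labelled knockdowns. It did not pass the test in Kyse150 (edgeR adjusted p = 0.14; 0.0457 without knockdown replicate 2) and fell to 0.59 times in TE11 (log2 fold change -0.76, SE 0.07; edgeR adjusted p = 1.09e-13).

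The 8 subunits of the chaperonin CCT, each present once in every ring, all fell in Kyse150 (23.3% of all tested genes). In TE11 5 rose, 2 fell and 1 did not pass the test. With the prefoldin subunits, 7 of 10 were called in TE11, where 78.1% of all tested genes were. Each called direction was the same under TMM, median-ratio and upper-quartile scaling, and TCP1 passed in TE11, as lower, under the last of these (edgeR adjusted p = 0.0225) and without control replicate 1 (0.0137). CCT6A was at 612 and 610.5 CPM in the Kyse150 controls, 353 and 376 in the knockdowns, 371, 378 and 352 in the TE11 controls and 845 and 861 in the labelled knockdowns. Its log2 fold change of -0.74 was the largest of the family in Kyse150 (SE 0.05; edgeR adjusted p = 1.04e-11), and in TE11 it was 1.20 (SE 0.06; edgeR adjusted p = 1.1e-23). CCT2 stood at 552 and 528 CPM against 378 and 371 in Kyse150, and at 313, 317 and 307 against 776 and 791 in TE11, where its 2.48-fold rise was the largest of the family. Neither gene's groups overlapped in either line. TCP1, the subunit that gives the complex its name, was at 407 and 368 CPM against 233 and 251 in Kyse150 (0.628 times; edgeR adjusted p = 9.39e-10). In TE11 it was at 551, 596 and 565 CPM in the controls and 528 and 560.5 in the labelled knockdowns, with overlapping groups (edgeR adjusted p = 0.18).

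CCT3 and CCT5 fell in both lines. CCT3 was at 501 and 511 CPM in the Kyse150 controls, 385 and 365 in the knockdowns, 684, 646 and 635 in the TE11 controls and 506 and 513 in the labelled knockdowns (0.745 and 0.77 times). The difference of its responses between the lines was 0.07 (edgeR adjusted p = 0.452). CCT5 was at 668 and 678 CPM, 471 and 474, 966, 957 and 965, and 860.1 and 863 in the same order of groups. It fell to 0.705 times in Kyse150 and 0.885 times in TE11, where the call was lost without labelled knockdown replicate 1 or 2 (edgeR adjusted p = 0.0713 and 0.0614). CCT4, CCT7 and CCT8 fell in Kyse150 and rose in TE11.
CCT4 stood at 423 and 399 CPM against 334 and 325 in Kyse150, and at 407, 417 and 399.5 against 526 and 545 in TE11. CCT7 stood at 706 and 748 CPM against 625 and 599.8, and at 567, 539 and 542 against 715 and 720.2. CCT8 stood at 403 and 382 CPM against 278 and 292, and at 333, 388 and 354 against 581 and 607. None of these groups overlapped within a line, and the TE11 rises were 1.3-fold, 1.29-fold and 1.64-fold. Of the prefoldin subunits, which hand nascent actin and tubulin to CCT, PFDN4 fell to 0.742 times in Kyse150 and did not pass the test in TE11, and PFDN2 passed in neither line.

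The subunits did not keep fixed proportions to one another. CCT5 held 15.6% and 16.1% of the counts of the 8 subunits in the Kyse150 controls, 15.4% and 15.5% in the knockdowns, 22.6% to 23.4% in the 3 TE11 controls, and 16.1% and 15.8% in the labelled TE11 knockdowns. CCT2 held 12.9% and 12.5%, 12.4% and 12.2%, 7.45% to 7.48%, and 14.5% in both. The TE11 controls were thus the group that stood apart in these 2 shares. The share of CCT7 went otherwise, at 16.5% and 17.7%, 20.4% and 19.6%, 12.7% to 13.5%, and 13.4% and 13.2%. There the 2 TE11 groups lay together, below all Kyse150 libraries. On the scale of CPM per kb of exon, the highest subunit over the lowest was 2.58 in the Kyse150 controls (CCT7 at 203 over TCP1 at 78.6), 3.47 in the knockdowns, 2.28 in the TE11 controls (CCT5 at 164.8 over CCT2 at 72.3) and 1.98 in the labelled TE11 knockdowns (CCT6A at 219 over TCP1 at 110.4).

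**Figure D4:**
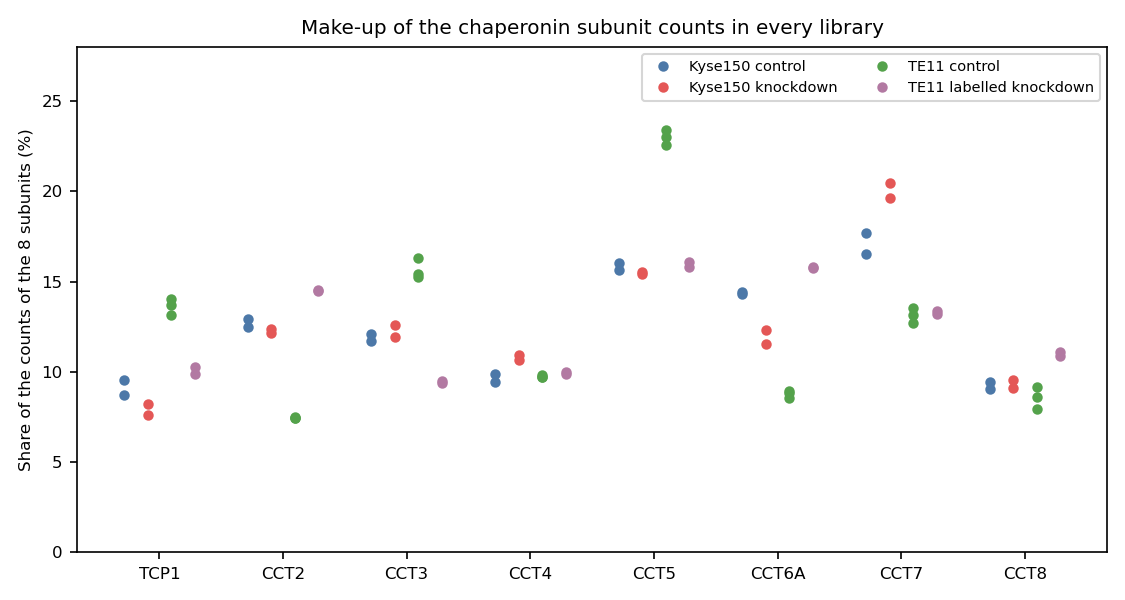
Share of the counts of the 8 chaperonin subunits taken by each subunit (percent, linear axis from 0), with 1 point per library and 1 colour per group. The TE11 controls lie apart in the shares of CCT2, CCT5 and CCT6A, where the labelled TE11 knockdowns lie closer to the Kyse150 controls. In the share of CCT7 both TE11 groups lie together, below both Kyse150 groups.

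Among small heat shock proteins and BAG factors, 2 of 4 rose and 1 fell in Kyse150 (24.8% and 23.3% of all tested genes). In TE11 2 rose and 1 fell. These 3 of 4 called lay near the 78.1% of all tested genes there. HSPB8, a small heat shock protein that works with BAG3 in selective autophagy, was at 10.0 and 12.9 CPM in the Kyse150 controls, 24.4 and 22.4 in the knockdowns, 9.45, 6.61 and 8.72 in the TE11 controls and 10.6 and 11.9 in the labelled knockdowns. Its groups were apart in both lines, and its 2.06-fold rise in Kyse150 was the largest of all 46 genes there (log2 fold change 1.04, SE 0.17; edgeR adjusted p = 1.26e-05). In TE11 it rose 1.35-fold (edgeR adjusted p = 0.0248), a call lost without labelled knockdown replicate 2 (0.167) or control replicate 2 (0.161), with DESeq2 (0.104) and under upper-quartile scaling (edgeR, 0.0526). BAG3, an exchange factor for HSP70, was at 172 and 180.2 CPM in the Kyse150 controls, 162 and 165 in the knockdowns, 92.1, 85.5 and 82.5 in the TE11 controls and 147 and 139.9 in the labelled knockdowns. It did not pass the test in Kyse150 (edgeR adjusted p = 0.23) and rose 1.64-fold in TE11 (edgeR adjusted p = 3.49e-12).
BAG1, the exchange factor that links HSP70 to the proteasome, was at 48.9 and 51.5 CPM in the Kyse150 controls, 36.4 and 38.1 in the knockdowns, 52.8, 47.7 and 49.7 in the TE11 controls and 50.7 and 59.2 in the labelled knockdowns. It fell to 0.745 times in Kyse150 (edgeR adjusted p = 0.00157), and its TE11 groups overlapped. HSPB1 (HSP27), an abundant small heat shock protein that binds early unfolding intermediates, was at 580.0 and 612 CPM against 683 and 633 in Kyse150, and at 338, 293 and 293 against 249.6 and 258 in TE11. The 1.11-fold rise in Kyse150 (edgeR adjusted p = 0.0222) was lost without control replicate 1 (0.234) or knockdown replicate 1 (0.305), with DESeq2 (0.0704), and in edgeR with the replicate block (0.0937) or all libraries in 1 fit (0.0608). In TE11 HSPB1 fell to 0.814 times (edgeR adjusted p = 7.92e-05).

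In mitochondria, 4 of 6 chaperone genes fell and 1 rose in Kyse150 (23.3% and 24.8% of all tested genes). In TE11 2 rose and 2 fell. These 4 of 6 called were not above the 78.1% of all tested genes there. TRAP1, the mitochondrial HSP90, was at 284 and 299 CPM in the Kyse150 controls, 355 and 308 in the knockdowns, 449, 412 and 422 in the TE11 controls and 209.8 and 208 in the labelled knockdowns. Its 1.15-fold rise in Kyse150 (edgeR adjusted p = 0.0126) was lost without knockdown replicate 1 (0.403) or control replicate 1 (0.105) and with DESeq2 (0.0650). In TE11 it fell to 0.483 times (log2 fold change -1.05, SE 0.06; edgeR adjusted p = 1.04e-19), and 29.3% of its exon bases also lie in another gene. GRPEL1, the exchange factor of mitochondrial HSP70, was at 68.2 and 65.5 CPM against 41.2 and 42.0 in Kyse150, and at 45.6, 45.8 and 47.3 against 84.8 and 84.2 in TE11. The groups were apart, with a fall to 0.625 times in Kyse150 (edgeR adjusted p = 2.04e-06) and a 1.81-fold rise in TE11 (edgeR adjusted p = 4.73e-13).
HSPD1 (HSP60), the mitochondrial chaperonin, was at 646 and 579 CPM against 373 and 412 in Kyse150, and at 1256, 1405 and 1290.1 against 1131 and 1121 in TE11. It fell in both lines, to 0.643 and 0.846 times, with no overlap of groups. Its partner HSPE1 (HSP10) was at 21.5 and 15 CPM against 12.2 and 9.95 in Kyse150 (0.611 times; edgeR adjusted p = 0.00338), which did not pass without control replicate 1 (edgeR adjusted p = 0.143). In TE11 it was at 11.2, 14.4 and 15 CPM against 10.8 and 13.4, with overlapping groups. Named pseudogenes of HSPE1 held counts equal to 32.7% of its own in Kyse150 and 25.1% in TE11, so its level is uncertain. HSPA9 (mortalin), the mitochondrial HSP70, fell to 0.848 times in Kyse150 and did not pass in TE11, while its J-domain partner DNAJA3 passed only the TE11 test, with a 1.32-fold rise.

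The heat shock factors themselves moved in TE11. HSF1, the main activator of the heat shock response, was at 97.3 and 93.1 CPM in the Kyse150 controls, 115 and 102 in the knockdowns, 52.6, 43.4 and 49.1 in the TE11 controls and 83.1 and 80.8 in the labelled knockdowns. It rose 1.68-fold in TE11 (edgeR adjusted p = 1.01e-10). Its 1.15-fold rise in Kyse150 (edgeR adjusted p = 0.0406) was lost without knockdown replicate 1 (0.442) or without control replicate 1 (0.057) or 2 (0.181), with DESeq2 (0.192), and in edgeR with the replicate block (0.0736), no filter (0.0621) or all libraries in 1 fit (0.0746). HSF2, the other heat shock factor of the list, was at 15.8 and 14.7 CPM against 17.2 and 16.9 in Kyse150, which did not pass (edgeR adjusted p = 0.437). In TE11 it was at 39.0, 46.4 and 48.5 CPM in the controls and 18.8 and 16.9 in the labelled knockdowns, a fall to 0.395 times (log2 fold change -1.34, SE 0.12; edgeR adjusted p = 5.07e-14). STUB1 (CHIP), the ubiquitin ligase that binds HSP70 and HSP90, was at 237 and 245 CPM against 252 and 233 in Kyse150, with overlapping groups, and at 141, 127 and 122 against 171 and 170.2 in TE11, a 1.3-fold rise (edgeR adjusted p = 4.74e-06). Of the 6 genes with the 3-unit element shown above, 5 fell in Kyse150 (23.3% of all tested genes) and DNAJB6 did not pass. In TE11 4 rose (35.9%), while HSP90AB1 and HSPD1 fell (42.2%). In an edgeR fit of all 9 libraries, the TE11 log2 fold change minus that of Kyse150 was called more positive for all 6 (0.42 to 3.11). That was also so for 18 of the 24 members whose promoters lacked the shorter form, and for 33.8% of all tested genes.

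Together the 46 genes took up 1.71% and 1.69% of all gene counts in the Kyse150 controls, 1.25% and 1.27% in the knockdowns, 1.65%, 1.68% and 1.65% in the TE11 controls and 2.34% and 2.36% in the labelled TE11 knockdowns. The controls of the 2 lines were close to each other, though the 2 tables list different sets of genes. The knockdown labels lay below the controls in Kyse150 and above them in TE11. Per kb of exon, the highest levels in the Kyse150 controls were those of HSP90AB1 (645 CPM per kb), HSPA8 (543), HSPB1 (365) and HSP90AA1 (299.9). In the Kyse150 knockdowns HSPB1 came first (403), before HSP90AB1 (389) and HSPA8 (286). In the TE11 controls HSP90AB1 (892) and HSP90AA1 (502) led, followed by HSPD1 (310.3) and HSPA8 (205). In the labelled TE11 knockdowns HSPA8 came first (936), before HSP90AA1 (865) and HSP90AB1 (790.0).

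The difference between the responses of the 2 lines was tested itself, as the TE11 log2 fold change minus that of Kyse150 in a fit of all 9 libraries. It passed for 42 of the 46 genes, 34 of them more positive in TE11 and 8 more negative. Of 15895 tested genes 33.8% were more positive, 33.1% more negative and 66.9% either. It was largest for HSPA8 (3.11; edgeR adjusted p = 3.32e-44) and most negative for HSPA1A (-2.70; edgeR adjusted p = 3.7e-22). By the separate calls, 16 genes fell in Kyse150 and rose in TE11, which was so for 15.2% of the 13276 genes tested in both lines, and 5 rose in Kyse150 and fell in TE11 (13.7%). HSP90AB1, PTGES3, CCT3, CCT5 and HSPD1 fell in both (4.69% of genes) and DNAJB1, HSPB8 and HSF1 rose in both (6.47%). Among these patterns, the TE11 calls of PTGES3, CCT5 and HSPB8 and the Kyse150 call of HSF1 were lost under alternatives given above. So were the Kyse150 calls of HSPB1 and TRAP1, which are among the 5 that rose in Kyse150 and fell in TE11. On the scale of log2(CPM + 0.5), the mean level in the labelled TE11 knockdowns was nearer to that of the Kyse150 controls than to that of the TE11 controls for 28 of the 46 genes (60.9%) and for 10377 of all 15895 genes (65.3%).

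Other chaperone genes were read from the same fits. Of all tested genes, 24.8% rose and 23.3% fell in Kyse150, 48.2% in either direction. In TE11 35.9% rose and 42.2% fell, 78.1% in either direction. Of 53 further cytosolic chaperones and co-chaperones, 42 were tested in Kyse150, where 23 fell and 3 rose, and 44 in TE11, where 24 rose and 12 fell. SGTA, a co-chaperone that shields membrane proteins in the cytosol, fell to 0.703 times in Kyse150 and rose 2.57-fold in TE11, and the prefoldin subunit VBP1 fell to 0.532 times in Kyse150. HSPA2, an HSP70 best known from the testis, fell from 82.6 ± 3.41 CPM (SD, n = 3) in the TE11 controls to 4.48 ± 0.915 CPM (SD, n = 2) in the labelled knockdowns (edgeR adjusted p = 4.37e-30). Of 13 further mitochondrial chaperones and proteases, 12 were tested in Kyse150, where 3 fell and 2 rose, and 13 in TE11, where 8 rose and 2 fell. With 5 of 12 and 10 of 13 called in either direction, this list lay near the shares of all tested genes. The matrix protease LONP1 rose 1.22-fold and the iron-sulfur co-chaperone HSCB fell to 0.649 times in Kyse150, and the disaggregase CLPB rose 3.44-fold in TE11. DNAJC15, a J-domain protein of the mitochondrial import motor, had 274, 359 and 344 counts in the TE11 controls and 0 and 1 in the labelled knockdowns, a ratio of 0.00204 (95% counting interval 5.17e-05 to 0.0114), and it had 0 counts in all 4 Kyse150 libraries. Of 20 chaperones of the endoplasmic reticulum, 7 rose and 5 fell in Kyse150 (median log2 fold change -0.05) and 13 rose and 4 fell in TE11 (0.62). CALR (calreticulin) fell to 0.735 times in Kyse150, and SERPINH1, the collagen chaperone, fell to 0.756 times there and rose 2.41-fold in TE11. The oxidase ERO1A fell to 0.319 times in TE11.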

How the data were processed

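Each line has 1 deposited table of raw counts per gene. Per the submitters' processing notes, the tools were bcl2fastq 2.19, HISAT2 2.1.0, HTSeq 0.9.1 and DESeq2. The same notes list GRCh37.p13 and GRCh38.p13 and do not say which table used which. HTSeq's strand setting was not given in the sources used here, so overlapping genes are uncertain: 10 of the 46 share over 10% of exon bases with another gene. The largest shares were those of STUB1 (42.4%), HSPA1B (36.5%), CCT5 (30.1%) and TRAP1 (29.3%). Per the labels' protocols RNA was selected with oligo(dT) and libraries were made in 3 replicates, while 3 of the 4 groups hold 2 here. HTSeq summary rows were left out of library sizes and tests. Reads that HTSeq assigned to no counted feature were 42.3% to 44.5% of each column.

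Groups came from sample titles. Within each line, edgeR 4.0.16 in R 4.3.3 was run with TMM scaling, filterByExpr (count 10, total 15) and a robust quasi-likelihood fit on group alone. Adjusted p-values are Benjamini-Hochberg over every gene tested, with a threshold of 0.05. The difference between lines was a contrast in a joint fit of the 9 libraries, limited to genes listed in both tables. Printed CPM values use TMM factors computed over those genes, while fold changes come from the fits within a line. The lines have separate tables that list different sets of genes, so levels set across lines are descriptions without a test. The part of this difference in shares of gene counts and in levels per kb was not tested. Exon lengths and positions are from GENCODE release 29 (GRCh38). Symbols were given to 89.9% of identifiers in the Kyse150 table and 99.5% in that of TE11. The listed gene HSPB11 was not matched. The endothelial sums cover 5 of the 6 listed markers and leave out PECAM1. Protein sequences were not analysed here. The fits were tested on simulated data.

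The 46 genes and the other lists were chosen with earlier results of these data known. Genes named with values in every library were, in each of 7 families, the 2 with the largest change in each line, plus HSPA1A, HSPA1B, the HSP90 pair and the 8 chaperonin subunits; in each other list, the 2 with the smallest p per line. Further members were named to account for the families, and HSPH1, UNC45A, HSPB1, HSPD1 and STUB1 were given in every library outside this rule, chosen after their values were seen. The markers SOX2, CDX2, TFF3, PTPRC and DCN were also named outside it. Alternatives were DESeq2 1.42.0, median-ratio and upper-quartile scaling, no filter, a stricter filter (CPM above 1), the replicate number as a block, all libraries in 1 fit, and each library left out. Counting intervals cover counting error only, since reads without molecular identifiers are not independent molecules. Replicates differed by more than counting noise (chi-square per degree of freedom 1.62 to 4.92), so each was counted as 1 sample.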

Additional observations from a re-analysis of the deposited data

Results flagged for a closer look

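The response to the labelled knockdown differed between the 2 lines for 42 of the 46 chaperone genes, by the edgeR contrast of the responses (adjusted p under 0.05), where 66.9% of all tested genes did. The values below are the TE11 log2 fold change minus that of Kyse150, and directions are between labelled libraries, since KDM2A was not lower in those labelled TE11 knockdown. In the HSP70 and HSP110 families the difference was 3.11 for HSPA8, 2.58 for HSPH1, 2.33 for HSPA14, 0.49 for HSPA4, -1.54 for HSPA1B and -2.70 for HSPA1A. Among J-domain proteins it was 1.76 for DNAJA1, 0.95 for DNAJA2, 0.91 for DNAJC7, 0.85 for DNAJB2, 0.77 for DNAJB6, 0.26 for DNAJB1 and -1.44 for DNAJB4. For HSP90 and its co-chaperones it was 2.51 for CHORDC1, 1.84 for HSP90AA1, 1.06 for CDC37, 0.89 for FKBP4, 0.67 for AHSA1, 0.55 for HSP90AB1, 0.31 for STIP1, 0.30 for PTGES3 and -0.61 for UNC45A. Among chaperonin and prefoldin subunits it was 1.96 for CCT6A, 1.85 for CCT2, 1.19 for CCT8, 0.71 for CCT4, 0.63 for CCT7, 0.61 for TCP1, 0.35 for CCT5 and 0.58 for PFDN4. For small heat shock proteins and BAG factors it was 0.83 for BAG3, 0.57 for BAG1, -0.42 for HSPB1 and -0.59 for HSPB8. In mitochondria it was 1.56 for GRPEL1, 0.42 for HSPD1, 0.36 for DNAJA3, 0.21 for HSPA9 and -1.22 for TRAP1. It was 0.57 for HSF1, 0.38 for STUB1 and -1.48 for HSF2. The 4 genes that did not pass were HSPE1, FKBP5, CCT3 and PFDN2. The difference of HSPB8 was not called with DESeq2 (0.0820), with the replicate block (0.0675) or without any 1 of 5 libraries (0.0578 to 0.198). That of HSPA9 was not called with the block (0.0745), no filter (0.0516) or upper-quartile scaling (0.326), nor without any 1 of 3 libraries (0.0570 to 0.117). Those of DNAJB1 and PTGES3 were lost under upper-quartile scaling (0.166 and 0.107), and those of DNAJB1, PTGES3 and DNAJA3 without 3, 1 and 1 of the 9 libraries. HSPE1 passed with the block (0.0267) and without any 1 of 5 libraries.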

How the results depend on the processing

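Each count was recomputed under every alternative. In 36 of the 46 genes in Kyse150, 38 in TE11 and 38 for the difference between lines, direction and call were the same in all of them. With DESeq2, 5 genes in place of 8 were called higher in Kyse150, and 2156 and 2181 of all genes were called higher and lower there in place of 3490 and 3281. Upper-quartile scaling moved the median difference of the 46 genes from 0.57 to 0.45 and that of all genes from -0.06 to -0.18, and without a filter on low counts the latter was -0.49. The summed CPM of the 46 genes was 17048 in the Kyse150 controls, 12087 in the knockdowns, 17344 in the TE11 controls and 24335 in the labelled knockdowns. With TMM factors from each table alone it was 17368, 12381, 16740.0 and 23231, and with library totals 12565 in the Kyse150 knockdowns, 16567 in the TE11 controls and 23496 in the labelled knockdowns. The sign turned, without a call, for 5 genes. In Kyse150 DNAJA3 was -0.024 and STUB1 -0.041 without knockdown replicate 1, and -0.048 and -0.010 without control replicate 1, in a range with 1 library left out of -0.048 to 0.16 and -0.041 to 0.069. In TE11 PFDN2 was 0.0036 in the fit of all libraries, 0.017 without labelled knockdown replicate 1 and 0.037 without control replicate 1, in a range of -0.072 to 0.037. The difference was -0.048 for CCT3 under upper-quartile scaling, and for FKBP5 0.083 without Kyse150 knockdown replicate 2 and 0.13 without control replicate 2, in a range of -0.18 to 0.13. With 1 library left out, the members called higher and lower were 6 to 8 and 28 to 30 in Kyse150, 24 to 26 and 10 to 14 in TE11, and 33 to 35 and 7 to 8 for the difference. Where that left 1 library in a group, it was assumed to vary like the other groups.

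Replicate numbers are shared between the groups of a line. Between same-numbered libraries, r of the deviations from group means was -0.0442 in Kyse150 and -0.00146 and -0.006 in TE11. In a group of 2 libraries the deviations mirror each other, so this check cannot tell whether same-numbered libraries were paired. With the replicate block the members called higher and lower were 6 and 28 in Kyse150, 25 and 12 in TE11, and 34 and 7 for the difference. With 2 or 3 libraries in a group, genes of low count such as HSPB8, DNAJB4 and HSPE1 are the least precisely measured.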
